A study of Mus musculus with 4 samples.

Results

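The genes described here encode the proteins of the cytosolic ribosome. They were chosen by name, as every symbol of the form Rpl or Rps with a number in the platform annotation, plus Rpsa, without S6 kinases and without symbols marked as pseudogenes. The rule found 58 genes among 19938 genes that had a probe set with 1 symbol, 23 of the small subunit and 35 of the large subunit. Of these, 55 reached a log2 intensity of 6 on at least 1 array, the floor used for all genes, and the same 55 reached it on each of the 4 arrays.

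Colon epithelium of C57BL/6 mice, 6 to 8 weeks old, was detached with EDTA, and its RNA was hybridised to Affymetrix Mouse Gene 1.0 ST arrays. There was 1 array for each of 4 genotypes: the double deletion Bmi1ΔIEC Mel18ΔIEC (DKO), Bmi1ΔIEC (called Bmi1_KO here), Mel18ΔIEC (Mel18_KO) and WT. Bmi1 and Mel18 (symbol Pcgf2) are homologous Polycomb genes, whose products sit in a complex that represses chromatin. Mice of every group, WT included, had received azoxymethane (10 mg/kg), a colon carcinogen, and 5 days of 3.5% dextran sulfate sodium, which injures the colon lining, and all were sampled on day 12. The sources used here do not name the promoter that drove the epithelial deletions or say how many mice stand behind each array. With 1 array per genotype, no difference between arrays has a replicate check or a test, and precision cannot be better than single arrays allow.

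A ribosome joins ribosomal RNA to a fixed set of proteins, made in the cytoplasm and assembled with the RNA in the nucleolus. The mRNAs of these proteins are among the most abundant in growing cells, and they carry a run of pyrimidines at their first bases, the TOP element, through which mTOR and the RNA-binding protein Larp1 control their translation and storage. In the intestine the dividing cells of the crypt make many ribosomes, and MYC raises the genes for them.

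Before the ribosomal genes, the arrays themselves were compared. Across 12526 genes at or above the floor, the DKO array correlated with the others at 0.878 to 0.906, while the 3 other arrays correlated with each other at 0.978 to 0.982. Bmi1 read 7.64 (DKO), 7.43 (Bmi1_KO), 6.999 (Mel18_KO) and 7.25 (WT) in log2 intensity, and Pcgf2 read 6.81, 6.72, 6.84 and 6.96 on the same arrays. Bmi1 was higher than on WT on both arrays labelled with its deletion (0.40 on DKO and 0.18 on Bmi1_KO), and Pcgf2 differed from WT by -0.15 on DKO and -0.13 on Mel18_KO. Neither gene was lost from the arrays that carry its label. The sources used here do not say which exons were deleted, so these readings leave the genotype labels unchecked. Epithelial markers were bright on every array: Epcam, a surface protein of epithelia, read 12.38 (DKO), 12.05 (Bmi1_KO), 11.99 (Mel18_KO) and 12.14 (WT).

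Transcripts of ribosomal proteins were lower on the DKO array than on WT, most of them by similar amounts (quartiles of -0.65 and -0.42 on the log2 scale), and differed little on either single-deletion array. All 55 measured genes read lower on DKO than on WT, with a median log2 difference of -0.56 (1.47-fold lower) and a range of -0.997 to -0.06. At least 1.5-fold lower were 25 of 55 genes and at least 1.5-fold higher were 0, where 20.2% of all 12526 genes were lower by that much and 14.3% higher. The members also lay closer together than other genes did. The SD of the DKO minus WT difference was 0.20 over the 55 genes, against 0.77 over all genes, whose median was -0.05 and of which 54.3% were below 0. Of the 55, 54 had their lowest reading of the 4 arrays on DKO, and 1, Rpl41, on Mel18_KO. This was not counted over all genes, and DKO also correlated least with the other arrays, so the count does not set the members apart. The size of the shift depended on how the arrays were scaled. After cyclic loess the median was -0.37 and 53 of 55 genes were below 0, where 48.6% of all genes were. At least 1.5-fold lower were 7 of 55, where 16.6% of all genes were.

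**Figure D1:**
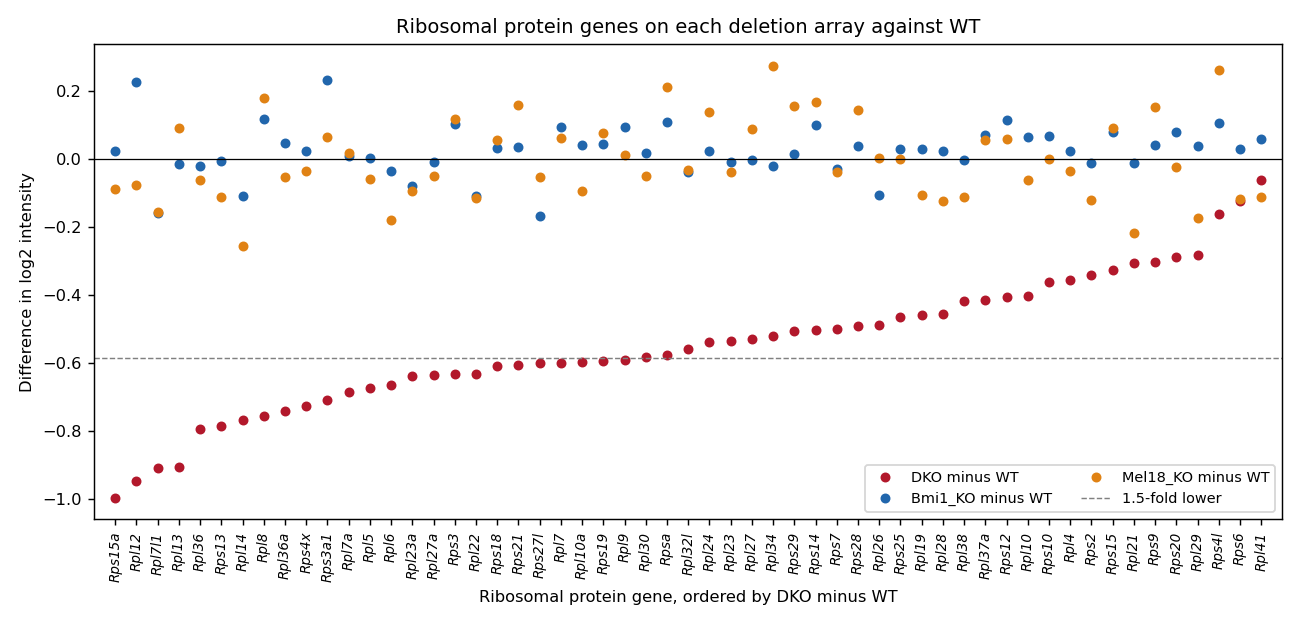
Difference in log2 intensity (vertical axis) of each deletion array from WT for the 55 ribosomal protein genes at or above the floor, ordered along the horizontal axis by DKO minus WT; each point is 1 probe set on a pair of arrays and the dashed line marks 1.5-fold lower. The DKO points run from -0.997 to -0.06, all below 0, while the points of both single deletions lie between -0.25 and 0.28.

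The largest differences were in genes of both subunits. Rps15a, a small subunit protein, read 6.87 (DKO), 7.89 (Bmi1_KO), 7.77 (Mel18_KO) and 7.86 (WT), a DKO minus WT difference of -0.997. Rpl12, which forms the base of the stalk where translation factors bind, read 6.71, 7.88, 7.58 and 7.65 on the same arrays, a difference of -0.95. For both genes DKO was the lowest array. The other arrays lay close together for Rps15a and less so for Rpl12, which was highest on Bmi1_KO. The set used for Rpl12 lists none of that gene's own RefSeq transcripts. Rpl13, of the large subunit, read 10.09 (DKO), 10.98 (Bmi1_KO), 11.09 (Mel18_KO) and 10.99 (WT), a difference of -0.91. Rpl36, also of the large subunit, read 10.98, 11.75, 11.71 and 11.77 (-0.80). Rpl7l1, a nucleolar relative of Rpl7, read 9.88 (DKO), 10.63 (Bmi1_KO), 10.64 (Mel18_KO) and 10.79 (WT), a difference of -0.91, and both single deletions also differed from WT, by -0.16 each.

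At the other end, a few genes were nearly level. Rpl41, which encodes the shortest ribosomal protein, read 12.26 (DKO), 12.38 (Bmi1_KO), 12.21 (Mel18_KO) and 12.32 (WT), so that DKO lay inside the range of the other arrays. Rps6, the small subunit protein phosphorylated by S6 kinases below mTOR, read 12.76, 12.92, 12.77 and 12.88, with DKO and Mel18_KO together at the low side. Their DKO minus WT differences were -0.06 and -0.12, and after cyclic loess both turned positive (0.16 and 0.11). Rps4l differed by -0.16 in the brighter of its 2 sets (-0.57 in the other), Rpl29 by -0.28 and Rps20 by -0.29. Rps20 read 12.15 on DKO, against 12.51 on Bmi1_KO, 12.41 on Mel18_KO and 12.43 on WT. Mutations of Rps20 darken the skin of mice.

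The start sites of the genes at both ends of this order are shown so that the letters of members that differed most and least can be read side by side. Each line gives 40 bases before and 20 bases after the annotated start (RefSeq, GRCm38.p6, 5′ to 3′ on the gene's strand), for the 4 lowest and the 4 highest members in DKO minus WT among those at or above the floor that have an entry in the promoter table. Capitals mark CTTCCG, the core letters bound by ETS factors such as GABP, or CTCTTTC, a pyrimidine run of the kind found at TOP starts, on either strand.
Rps15a (chr7:118116128-118116187, minus strand): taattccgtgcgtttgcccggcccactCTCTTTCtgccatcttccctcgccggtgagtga
Rpl12 (chr2:32961672-32961731, plus strand): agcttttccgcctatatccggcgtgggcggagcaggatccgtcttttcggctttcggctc
Rpl7l1 (chr17:46782637-46782696, minus strand): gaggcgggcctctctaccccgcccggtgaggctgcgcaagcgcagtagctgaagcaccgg
Rpl13 (chr8:123102310-123102369, plus strand): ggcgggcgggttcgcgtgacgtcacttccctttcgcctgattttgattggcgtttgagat
Rps15 (chr10:80292391-80292450, plus strand): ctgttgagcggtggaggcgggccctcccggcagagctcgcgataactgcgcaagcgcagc
Rps9 (chr7:3704001-3704060, plus strand): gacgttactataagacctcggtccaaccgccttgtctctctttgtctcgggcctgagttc
Rps6 (chr4:86857348-86857407, minus strand): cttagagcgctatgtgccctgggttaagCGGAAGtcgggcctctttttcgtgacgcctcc
Rpl41 (chr10:128549149-128549208, minus strand): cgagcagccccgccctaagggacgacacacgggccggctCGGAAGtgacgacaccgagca

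Of these 8 windows, 2 held CTTCCG, those of Rps6 and Rpl41, and 1 held CTCTTTC, that of Rps15a. Within a wider 300 bases around the start CTTCCG also stood in Rps15a, Rpl12 and Rps15, so it was found at both ends of the order. Over the whole table, 47 of the 58 members had a promoter of 300 bases (250 before and 50 after the start). CTTCCG stood in 32 of the 47, or 68.1%, against 33.1% of 9971 genes at or above the floor and 18.8% of all 27025 genes in the table. CTCTTTC stood in 12 of 47 (25.5%), against 8.62% of genes at or above the floor. These motifs and 4 others were searched on both strands. GGGCGG, the letters bound by SP1, stood in 57.4% of members and 66.8% of genes at or above the floor, AAGATGG (YY1) in 10.6% and 8.20%, TATAAA (the TATA box) in 10.6% and 9.54%, and CACGTG (the E-box bound by MYC) in 10.6% and 11.4%. A gene with several annotated starts counted once if any of its promoters matched, and neighbouring motifs may share end bases. The 31 measured members with CTTCCG had a median DKO minus WT difference of -0.52, and the 13 without it -0.60, and the ranges of both sets overlapped (-0.997 to -0.06 with it, -0.91 to -0.30 without). A match describes letters in a window and does not show binding.

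Members of both subunits were lower by similar amounts on DKO. The 23 small subunit genes had a median DKO minus WT difference of -0.50, with 9 at least 1.5-fold lower, and the 32 large subunit genes had a median of -0.59, with 16 lower. Over all genes 20.2% were lower by that much. Against the mean of the single deletions the medians were nearly equal, -0.58 for the small subunit and -0.57 for the large. At least 1.5-fold lower there were 11 of 23 and 14 of 32 genes, where 18.8% of all genes were lower. Parts of the ribosome named by function gave the following values. Rpl5, which binds the smallest ribosomal RNA and, when free, the p53 regulator Mdm2, read 11.09 (DKO), 11.77 (Bmi1_KO), 11.71 (Mel18_KO) and 11.76 (WT), a difference of -0.68. Rps3, at the channel where mRNA enters, read 10.96, 11.69, 11.71 and 11.59 (-0.63), while Rps2, also at that channel, and Rps15, near the decoding site, differed by -0.34 and -0.33 in their brightest sets. Other sets of Rps2 read -0.36 and -0.65, and other sets of Rps15 read -0.61 and -0.57, so these genes do not stand apart from Rps3 in every set. Of the proteins that line or ring the exit tunnel of the large subunit, 6 were measured, with a median of -0.47 and a range of -0.64 (Rpl23a) to -0.36 (Rpl4). Rpl10, which joins the large subunit late and lies near the peptidyl transferase centre, differed by -0.40, and Rpl8, a core protein near the same centre, by -0.76. Rpl38, whose mutations alter the tail and skeleton of mice, differed by -0.42, and Rpl22, needed for T cell development in mice, by -0.63. Rpl11, Rpl17, Rpl31, Rpl35, Rps23 and Rps27a had no probe set with a single symbol and are not analysed here.

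The rule also took in 7 genes named as relatives of another ribosomal protein by a letter l in the symbol. Rpl3l, the striated muscle relative of Rpl3, and Rpl10l and Rpl39l, both known from testis, stayed below the floor on all 4 arrays, with Rpl3l at 4.73 (DKO), 4.73 (Bmi1_KO), 4.67 (Mel18_KO) and 4.69 (WT). Rpl10l read 4.95, 5.29, 5.58 and 5.38 on the same arrays, and Rpl39l read 3.70, 3.72, 3.98 and 3.53. Readings this low are near background and give no direction. Rps27l, a relative of Rps27 that p53 induces in human cells, read 10.78 (DKO), 11.22 (Bmi1_KO), 11.33 (Mel18_KO) and 11.38 (WT), a difference of -0.60. It was therefore lower on DKO like the standard members. Rps4l read 8.06 (DKO), 8.33 (Bmi1_KO), 8.48 (Mel18_KO) and 8.22 (WT). Its DKO minus WT difference was -0.16 in this set and -0.57 in its other set, which was almost as bright (mean 8.26 against 8.27), so the sets disagree on its size. Its relative Rps4x differed by -0.73. The RefSeq table lists Rps4l as a transcribed pseudogene although its symbol passed the rule. Rpl32l differed by -0.56. Rpl7, the relative of Rpl7l1, differed by -0.60, and Rpl10 by -0.40 as given above, while Rpl3, Rpl39, Rpl32 and Rps27 had no probe set with a single symbol.

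**Figure D2:**
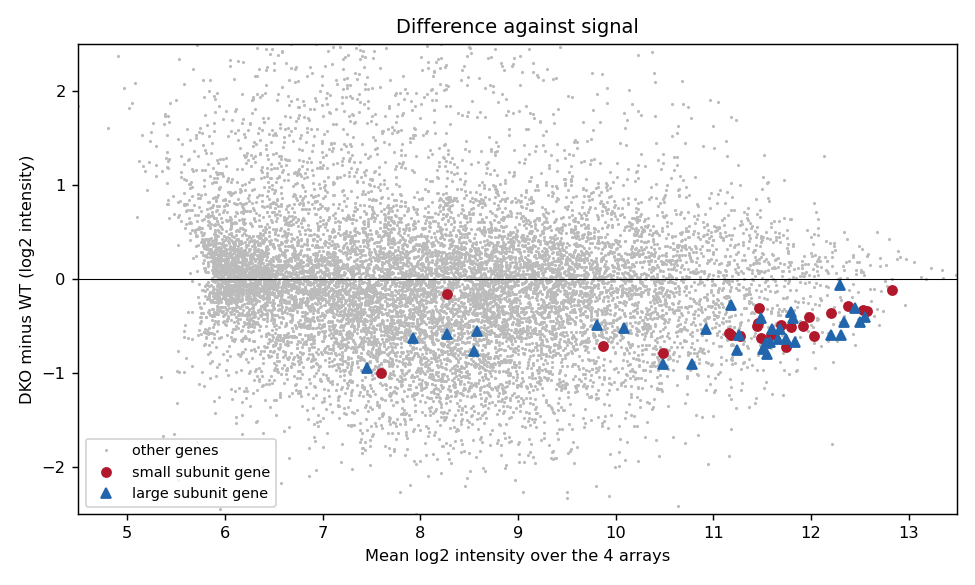
Difference DKO minus WT in log2 intensity (vertical axis) against the mean log2 intensity over the 4 arrays (horizontal axis) for small subunit genes (circles), large subunit genes (triangles) and all other genes at or above the floor (grey dots, of which 102 lie outside the axes). The ribosomal protein genes form a band below 0 at most signals, and the band comes closer to 0 at a mean of 12 or more.

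The differences were smaller in the brightest probe sets. The 33 members with a mean log2 intensity of 10 to 12 had a median DKO minus WT difference of -0.59, with 17 at least 1.5-fold lower, and the 13 members at 12 or more had a median of -0.36, with 3 lower. Over all genes in the same ranges the medians were -0.08 (1618 genes) and 0.01 (146 genes), and the shares at least 1.5-fold lower were 19.8% and 8.22%. The 146 genes include the 13 members, which make up 3 of the 12 lower ones. The 9 members under 10 had a median of -0.63, with 5 at least 1.5-fold lower. Over the 10762 genes in that range the median was -0.05, and 20.4% were lower by that much. Over the 55 members the mean signal and the difference gave a Pearson r of 0.447 and a Spearman rho of 0.503, given as a description of genes that share the same arrays. Over all 12526 genes at or above the floor the values were -0.107 and -0.121. Rps6 was the brightest member, at a mean of 12.83. The part of signal level in the smaller differences was not tested. Intensities of different probe sets do not rank the transcripts, because probes differ in how well they bind.

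Many of these genes have processed copies in the genome, and the array carries several probe sets under 1 symbol for 37 of the 58 members, 212 sets in all and up to 14 for Rps12. Every one of the sets at or above the floor of these 37 genes read lower on DKO than on WT. Over the 209 member sets at or above the floor the median was -0.57, with 92 at least 1.5-fold lower and 0 higher, where 20.4% of all 13744 sets with 1 symbol were lower and 13.8% higher. A further 237 sets carry a ribosomal protein symbol beside other symbols and were not assigned to a gene. Their median was -0.56, with 108 lower and 0 higher, where 22.1% of all 962 sets with several symbols were lower and 16.6% higher. These 962 sets include the ribosomal ones, which make up 108 of the 213 lower sets. Sets of the same gene lay within 0.2 log2 of each other for 30 of the 37 genes: the 9 sets of Rpl13 ran from -0.92 to -0.80, the 9 of Rpl36 from -0.87 to -0.71, the 6 of Rpl10 from -0.47 to -0.39 and the 8 of Rps6 from -0.21 to -0.04. So Rpl13 and Rpl36 were low and Rps6 near 0 in each of their sets. The other 7 genes, named here for their spread, had sets further apart. Their DKO minus WT differences ran from -1.02 to -0.65 in Rpl7a, -0.67 to -0.41 in Rpl23a, -0.65 to -0.34 in Rps2 and -0.61 to -0.33 in Rps15. They ran from -0.57 to -0.16 in Rps4l, -0.53 to -0.26 in Rps25 and -0.50 to -0.25 in Rpl21. The place of these genes in the order therefore depends on the set chosen. These sets are no independent readings, since copies have near-identical targets, and 19 sets of 5 genes had values identical to another set of the same gene. For the same reason the transcripts of a gene and of its copies cannot be told apart here. For Rpl12 and Rps3a1 the set used lists none of the gene's own RefSeq transcripts.

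**Figure D3:**
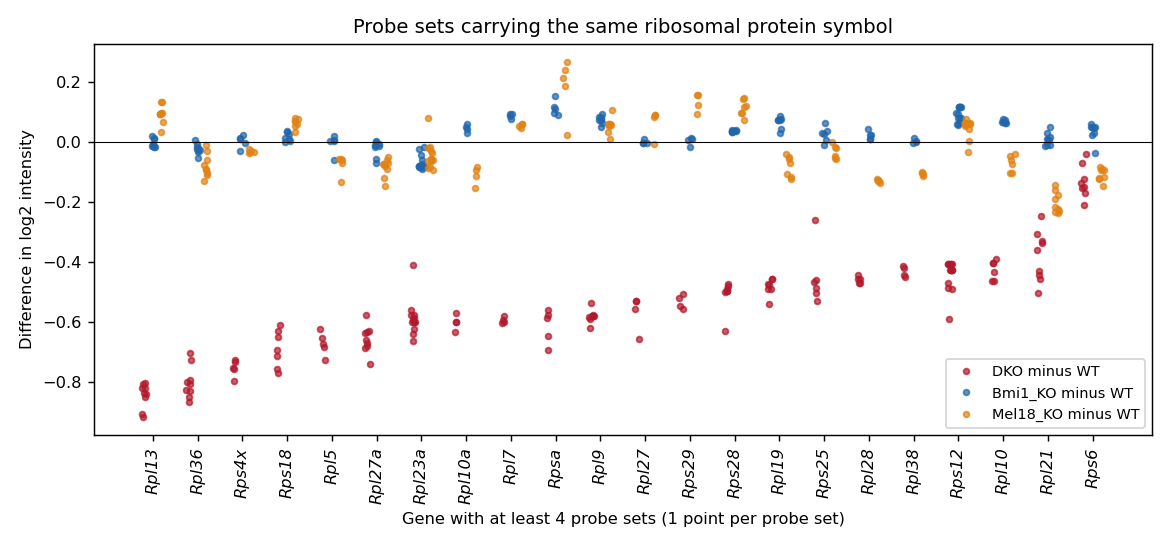
Difference in log2 intensity from WT (vertical axis) for each probe set of the 22 ribosomal protein genes with at least 4 sets at or above the floor (horizontal axis), with 1 point per set and colours for DKO, Bmi1_KO and Mel18_KO. The DKO points run from -0.92 to -0.80 for Rpl13 and from -0.21 to -0.04 for Rps6, and single sets of Rpl23a and Rps25 lie apart from the others of their gene.

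The single deletions showed no shift of this kind. On Bmi1_KO against WT the 55 members had a median of 0.02 (SD 0.08 over genes), and on Mel18_KO a median of -0.03 (SD 0.12). On both arrays 0 members were 1.5-fold higher and 0 lower, where 2.02% and 1.53% of all genes were higher and lower on Bmi1_KO, and 1.19% and 2.35% on Mel18_KO. Median centring turned the sign of both medians (-0.05 and 0.01), so neither has a direction. The largest size of any member's difference was 0.28, in Rpl34 on Mel18_KO, and 52 of 55 members differed by more than this between DKO and WT. Rpl34, of the large subunit, read 9.63 (DKO), 10.13 (Bmi1_KO), 10.43 (Mel18_KO) and 10.15 (WT). On Bmi1_KO the highest were Rps3a1 (0.23), Rpl12 (0.23), Rpl8 (0.12), Rps12 (0.12) and Rpsa (0.11), and the lowest Rps27l (-0.17), Rpl7l1 (-0.16), Rpl22, Rpl14 and Rpl26 (each -0.11). On Mel18_KO, Rps4l (0.26), Rpsa (0.21), Rpl8 (0.18) and Rps14 (0.17) followed Rpl34, and the lowest were Rpl14 (-0.25), Rpl21 (-0.22), Rpl6 (-0.18), Rpl29 (-0.17) and Rpl7l1 (-0.16).

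**Figure D4:**
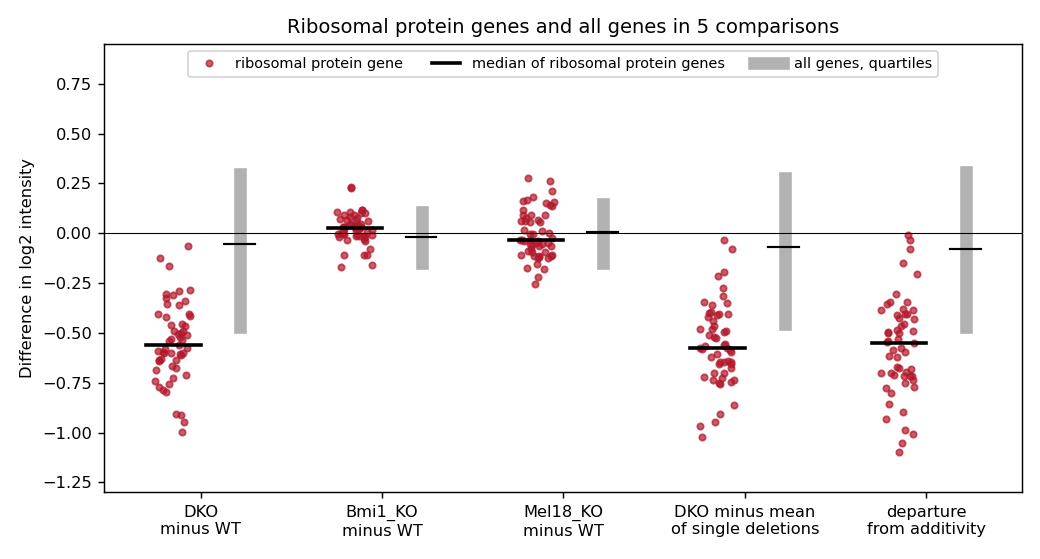
Difference in log2 intensity (vertical axis) of the 55 ribosomal protein genes (points, with their median as a bar) in 5 comparisons, beside the quartiles (grey) and median of all 12526 genes. The medians are -0.56, 0.02, -0.03, -0.57 and -0.55 from left to right, and the SD over members is smaller than that over all genes in each comparison.

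Markers of the seminal vesicle were bright on the WT array, which takes no part in the comparisons of DKO with the single deletions. The summed intensity of 10 such markers was 178 (DKO), 387 (Bmi1_KO), 178 (Mel18_KO) and 16311 (WT). Against the mean of Bmi1_KO and Mel18_KO, the members had a median of -0.57, with 25 of 55 at least 1.5-fold lower and 0 higher, where 18.8% of all genes were lower and 14.0% higher. The lowest were Rpl12 (-1.02), Rps15a (-0.96), Rpl13 (-0.95), Rpl8 (-0.90) and Rps3a1 (-0.86). The highest were Rpl41 (-0.04), Rps6 (-0.08), Rpl21 (-0.19), Rpl29 (-0.21) and Rps2 (-0.27). Other sets of Rps2 read -0.32 and -0.66, and the sets of Rpl21 ran from -0.43 to -0.14. Against Bmi1_KO alone 25 members were at least 1.5-fold lower and 0 higher (17.7% and 14.3% of all genes), and against Mel18_KO alone 26 were lower and 0 higher (20.8% and 14.1% of all genes). At least 1.5-fold lower than each of the 3 other arrays were 19 members, where 14.6% of all genes were. These comparisons share the DKO array and are not independent of the one against WT.

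The 2 by 2 layout also asks whether DKO departed from the sum of both single differences (DKO minus Bmi1_KO minus Mel18_KO plus WT). All 55 members were below additivity, with a median of -0.55, where 55.9% of all genes were below it. Of the members, 25 were below it by at least 1.5-fold, where 19.1% of all genes were below and 15.4% above by that much. Rpl12 departed furthest (-1.10), followed by Rpl8 (-1.05), Rps3a1 (-1.01), Rpl13 (-0.98) and Rps15a (-0.93), while Rps2 (-0.21), Rpl29 (-0.15), Rpl21 (-0.08), Rps6 (-0.03) and Rpl41 (-0.01) departed least. For Rpl12 and Rps3a1 the sets used list none of the genes' own RefSeq transcripts. Other sets of Rps2 departed by -0.27 and -0.68, and the sets of Rpl21 ran from -0.36 to -0.04. The place of these genes therefore depends on the set chosen. Rpl8 read 10.60 (DKO), 11.48 (Bmi1_KO), 11.54 (Mel18_KO) and 11.36 (WT), and Rps3a1 read 9.26, 10.21, 10.04 and 9.97, so both were higher on each single deletion than on WT and lowest on DKO. An additive model over the 4 arrays, in which this departure is the only residual, gave average differences with loss of Bmi1 and of Mel18 whose medians over members were -0.29 and -0.28. By limma with Benjamini-Hochberg adjustment over 12526 genes, 0 members passed 0.05 for either deletion, and 0 members had an unadjusted p under 0.05. The lowest adjusted p of any member was 0.849 for loss of Bmi1 and 0.952 for loss of Mel18, each shared by several members. Over all genes tested, none passed for either deletion, and 2.59% and 1.10% of genes had an unadjusted p under 0.05. The fit has 1 residual degree of freedom, and the departure from additivity enters its error.

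Other genes of the translation pathway were taken from lists. Beside the counts below, 20.2% of all genes were at least 1.5-fold lower in DKO minus WT and 14.3% higher. The stalk proteins, which recruit translation factors and whose symbols fall outside the rule, differed between DKO and WT by -0.49 (Rplp0), -0.39 (Rplp1) and -0.66 (Rplp2). Rplp0 read 12.29 (DKO), 12.94 (Bmi1_KO), 12.79 (Mel18_KO) and 12.78 (WT), so its pattern over the arrays was that of the members. Fau, which encodes a small subunit protein fused to a ubiquitin-like one, differed by -0.25. Of 6 genes listed as elongation factors 3 were at least 1.5-fold lower and 0 higher (median -0.63): Eif5a (-1.23), Eef1d (-1.12) and Eef1e1 (-0.76). Eef1e1 is an elongation factor by name only, and both the count and the median include it. Eef1a1, which brings tRNA to the ribosome, differed by -0.27, and Eef1b2 by -0.51. Of 7 further transcripts with a TOP start 1 was lower, Nap1l1 (-0.69), and 0 higher (median -0.26), with Tpt1 (0.04) and Btf3 (0.06) level. So the genes sharing the TOP start did not all differ by the same amount.

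Genes that build ribosomes had a lower median on DKO than the ribosomal proteins themselves. The counts that follow stand beside 20.2% of all genes at least 1.5-fold lower in DKO minus WT and 14.3% higher. In DKO minus WT, 30 of 33 ribosome biogenesis genes were at least 1.5-fold lower and 0 higher (median -1.22), led by the RNA polymerase I subunit Polr1b (-1.73) and the small subunit assembly factor Bysl (-1.64). Of 77 mitochondrial ribosomal protein genes 65 were lower and 0 higher (median -0.96, Mrps27 -1.78). Of 6 chaperones of single ribosomal proteins 4 were lower and 0 higher (median -0.92), including Grwd1 (-1.83), which carries Rpl3, and Tsr2 (-1.26), which carries Rps26. Of 28 initiation factors 12 were lower and 0 higher (median -0.56), a median equal to that of the members to 2 decimals but with a wider range, -1.77 (Eif2b1) to 0.39 (Eif2s2). Among 10 regulators of TOP mRNAs and ribosome synthesis 2 were lower and 0 higher (median -0.23), so the list was lower no more often than all genes. Of these 2, Myc read 8.40 (DKO), 9.13 (Bmi1_KO), 9.22 (Mel18_KO) and 9.92 (WT), a difference of -1.52, and Larp1 read 9.87, 10.46, 10.66 and 10.72 (-0.85). Myc also differed from WT by -0.79 on Bmi1_KO and by -0.70 on Mel18_KO. Against the mean of the single deletions the medians were -1.04 for biogenesis, -0.83 for mitochondrial ribosomal proteins and -0.49 for initiation factors. The difference between these lists and the members was not tested.

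**Figure D5:**
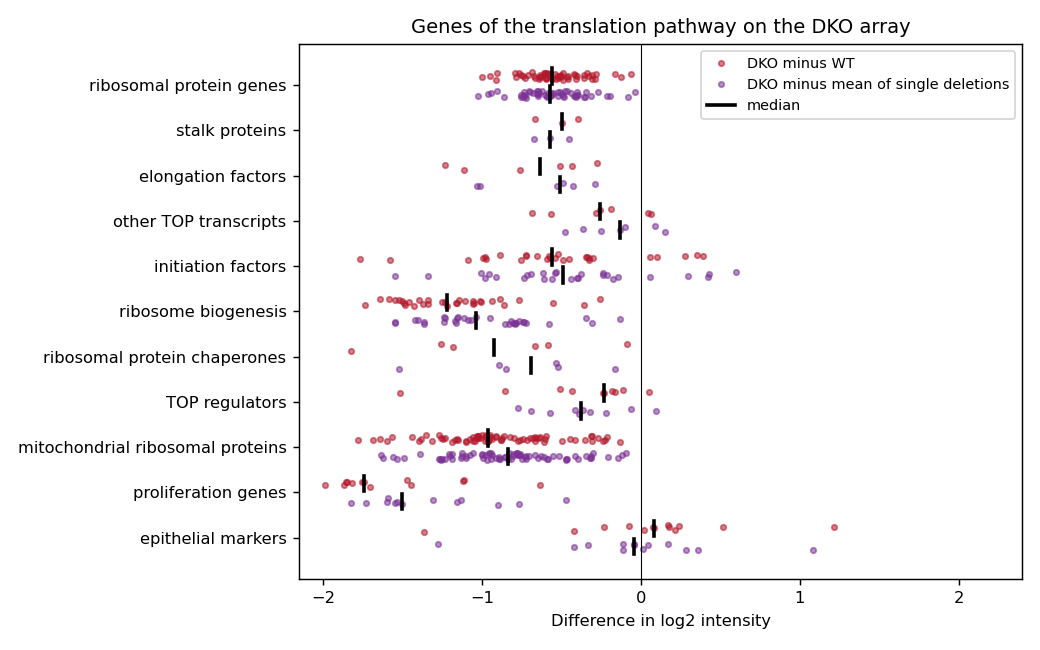
Difference in log2 intensity (horizontal axis) of DKO from WT (upper row of each pair) and from the mean of the single deletions (lower row) for genes of each list (points) with the list median (bar). Ribosomal protein genes lie in a narrow band around -0.56 and -0.57, ribosome biogenesis genes around -1.22 and -1.04, and epithelial markers near 0.

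Markers of other cells and of division moved on the same array. Over all genes 20.2% were at least 1.5-fold lower in DKO minus WT and 14.3% higher. In DKO minus WT all 13 measured proliferation genes were at least 1.5-fold lower (median -1.74), with summed intensities of 6226 (DKO), 13740 (Bmi1_KO), 13866 (Mel18_KO) and 16575 (WT). Neutrophil markers were at least 1.5-fold higher in 10 of 11 cases and summed to 19257 (DKO), 10213 (Bmi1_KO), 1727 (Mel18_KO) and 4117 (WT). Mononuclear phagocyte markers were higher by that much in 10 of 10 cases and summed to 14020, 5022, 2661 and 3931 on the same arrays. At least 1.5-fold higher were endothelial markers in 6 of 6 measured cases (median 1.12), fibroblast and muscle markers in 6 of 9 (0.77), T and NK cell markers in 2 of 6 (0.45) and B and plasma cell markers in 2 of 5 (0.50). Epithelial markers were level as a list (median 0.08 over 13 genes, 1 higher and 1 lower by at least 1.5-fold) and summed to 55350 (DKO), 53459 (Bmi1_KO), 54053 (Mel18_KO) and 50509 (WT). On Bmi1_KO, where neutrophil markers had a median of 1.15 against WT, the members' median was 0.02, and on Mel18_KO, where they had -1.11, it was -0.03. Other lists lay nearer to WT on Bmi1_KO than on DKO, as the members did. Mononuclear phagocyte markers summed to 5022 on Bmi1_KO, against 14020 on DKO and 3931 on WT. Proliferation genes summed to 13740, 6226 and 16575 on these arrays, and endothelial markers to 600, 1270 and 472. In bulk RNA, fewer cells with many ribosomal transcripts and fewer such transcripts per cell cannot be told apart, and the part of these markers in the lower ribosomal readings on DKO was not tested.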

How the data were processed

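The authors deposited probe set intensities on a linear scale for 4 arrays, 1 per genotype, which RMA in Expression Console produced, tools that the submitters' processing notes name. RMA equalises the arrays' value distributions, so a change shared by most transcripts would be removed, and differences here are relative to the other genes of an array. No versions are named. Values were turned to log2. Of 35556 probe sets, 21789 had 1 symbol in the platform annotation, 1621 several and 12146 were unlisted. For a gene with several sets, its brightest set by mean was taken, which left 19938 genes, of which 12526 reached a log2 intensity of 6 on the highest array. All 58 members had a gene identifier in the RefSeq table. Differences at least 1.5-fold (0.585 on the log2 scale) were counted, for members and for all genes. The members and lists were chosen with earlier results of these data known. The genes named are the 5 highest and 5 lowest members in each comparison, the dimmest and brightest, the relatives named with the letter l, structural groups and up to 4 examples per list. For average changes, lmFit and eBayes of limma 3.58.1 were run under R 4.3.3. The code was checked on simulated arrays with additive changes only, so that check does not cover a departure from additivity. Python 3.11.15, numpy 2.4.6, pandas 2.3.3 and scipy 1.17.1 were used. Alternatives were floors (none, 8, 10), cyclic loess, median centring, an added 32, other folds, the mean of a gene's sets, leaving out the relatives, an eBayes trend, and, added after the data were seen, each single deletion in place of WT.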

Additional observations from a re-analysis of the deposited data

Results flagged for a closer look

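Values that point in opposite directions for 1 deletion, depending on the other gene, are given here; with 1 array per genotype these differences were not tested. The median member difference with loss of Bmi1 was -0.55 where Mel18 was also lost (DKO minus Mel18_KO) and 0.02 where it was present (Bmi1_KO minus WT). Among members with at least 0.2 log2 on both sides, loss of Bmi1 gave Rpl12 -0.87 with Mel18 lost and 0.23 with Mel18 present, and Rps3a1 -0.78 and 0.23. The sets used for Rpl12 and Rps3a1 list none of the genes' own RefSeq transcripts, so these readings may not be theirs. Loss of Mel18 gave Rpl34 -0.50 with Bmi1 lost and 0.28 with Bmi1 present, Rps4l -0.27 and 0.26 (in its brighter set, while its other set read 0.06 with Bmi1 present), and Rpsa -0.69 and 0.21. With Bmi1 present the other sets of Rpsa ran from 0.02 to 0.27, so its listing here depends on the set chosen. Rpsa, a small subunit protein also known as a laminin receptor, read 10.65 (DKO), 11.33 (Bmi1_KO), 11.44 (Mel18_KO) and 11.23 (WT).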

How the results depend on the processing

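Medians were compared with a tolerance of 0.1 log2 and counts with one of 1.5-fold. After cyclic loess the members' median was -0.37 for DKO minus WT, -0.39 for DKO minus the mean of the single deletions and -0.38 for the departure from additivity, and 7, 5 and 8 of 55 members were at least 1.5-fold lower, where 16.6%, 14.3% and 14.2% of all genes were. These shares of members were close to or below those of all genes, while the medians of all genes were 0.02, 0.01 and 0.02. The lower of the other fold thresholds gave 48, 49 and 49 lower members (32.5%, 32.2% and 33.5% of all genes) and a threshold of 2-fold gave 0, 1 and 3 (8.19%, 6.51% and 6.43%). Median centring gave 32, 32 and 30 lower members, where 23.4%, 21.7% and 21.4% of all genes were lower. The other alternatives, including Bmi1_KO or Mel18_KO in place of WT, moved none of the medians or counts of members past these tolerances. Of single members, cyclic loess moved 52 of 55 by more than 0.1, the mean of a gene's sets moved 4 and an added 32 moved 2. In the additive model 0 members passed under each of the 10 settings run, and 0 of all genes did. The departure from additivity enters the error in each setting, so these counts cannot speak to a difference seen only on DKO. No paired analysis was possible because each genotype has 1 array. Single arrays set the precision, and for Rpl3l, Rpl10l and Rpl39l signals near background add to this.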

Other observations

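The 5 subunits of eIF2B, the exchange factor that recycles initiation factor eIF2, were picked out after their values were seen. Eif2b1 read 8.11 (DKO), 9.74 (Bmi1_KO), 9.57 (Mel18_KO) and 9.87 (WT), and Eif2b3 read 7.43, 8.83, 8.70 and 9.01. Their DKO minus WT differences were -1.77 and -1.58, followed by Eif2b4 (-1.09), Eif2b5 (-0.76) and Eif2b2 (-0.58), all further from 0 than the members' median. Of the 28 initiation factors, the 5 above 0, also picked out by their values, were under 1.5-fold higher: Eif2s2 (0.39), Eif4a2 (0.35), Eif5b (0.28), Eif5 (0.10) and Eif4g2 (0.06).

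Mdm2, the p53 regulator that free Rpl5 and Rpl11 bind, read 9.45 (DKO), 8.81 (Bmi1_KO), 8.55 (Mel18_KO) and 8.77 (WT), a difference of 0.68, while its relative Mdm4 differed by -0.01.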
